A study of Homo sapiens with 9 samples.

Results

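The genes described here are 31 that encode the pyruvate dehydrogenase complex, its regulators, the mitochondrial pyruvate carrier and enzymes of the citric acid cycle. They were chosen by symbol from a fixed list, and all 31 were present in the deposited tables, which share 12854 genes. The libraries came from HepG2 cells, an established human liver cancer line, and were sequenced to ask which transcripts change when the long non-coding RNA *TUG1* is knocked down. Each of 3 groups had 3 libraries, namely sh-Con (a control short hairpin RNA), sh1-*TUG1* and sh2-*TUG1* (different hairpins against *TUG1*). All groups carried the same lentiviral vector, whose hairpin is expressed on doxycycline, and all were grown in low-glucose medium. Each hairpin was represented by 1 transduced line, so hairpin and line cannot be told apart. The replicates were described as technical, so the p-values measure only the spread between libraries. *TUG1* was not analysed here, so no targeted gene checks the labels.

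Pyruvate made by glycolysis enters the mitochondrial matrix through the carrier formed by *MPC1* and *MPC2*. The pyruvate dehydrogenase complex then turns it into acetyl-CoA, which citrate synthase joins to oxaloacetate to start the citric acid cycle. Pyruvate dehydrogenase kinases switch the complex off by phosphorylation and the phosphatases switch it on again, so their balance is a known control point between lactate production and oxidation of pyruvate in liver cancer cells. *PDK1* is well known as a target of hypoxia-inducible factor and of MYC.

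The libraries held 33049003 to 39387125 counts over the shared genes, and the 31 genes took 0.282% to 0.294% of them in sh-Con, 0.304% to 0.307% in sh1-*TUG1* and 0.271% to 0.273% in sh2-*TUG1*. *IDH1* weighs most in this share, with 33398 of the 93163 counts of the 31 genes in sh-Con replicate 1. Replicates differed by more than read sampling, with a chi-squared of 6.57 to 23.2 per gene between pairs of libraries of a group, and no library appeared to be deposited more than once. Replicate 1 of sh-Con differed most from its fellows, with 20.8 and 23.2 against 10.3 between the other two, and so did replicate 3 of sh2-*TUG1*, with 16.95 and 15.1 against 6.57. Calls by adjusted p that end or begin without either library are given with the genes. All 9 hepatocyte markers examined were present, with a summed level of 40000 to 41670 CPM (counts scaled to a common library total by TMM over the 9 libraries) for sh-Con, 44510 to 45960 CPM for sh1-*TUG1* and 48690 to 51000 CPM for sh2-*TUG1*. Of 8 markers of immune, stromal and endothelial cells, 3 were listed, and they summed to 68.4 to 81.2 CPM for sh-Con, 45.1 to 49.6 CPM for sh1-*TUG1* and 29.8 to 37.6 CPM for sh2-*TUG1*. The defining markers *PTPRC*, *CD3E*, *COL1A1* and *COL1A2* were not among the shared genes. No gene of the sh1-*TUG1* table had a total under 152 counts, so a gene that is not listed may still be expressed at a low level. Within both sums single markers went opposite ways. *ALB* had log2 fold changes of 0.45 and 0.91 in sh1-*TUG1* and sh2-*TUG1* where *TF* had −0.65 and −0.50, and *CD68* had −0.86 and −1.61 where *VWF* had 1.40 and 1.65. The part of these markers in the results was not tested. In bulk RNA, fewer cells expressing a gene cannot be told apart from less RNA per cell.

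In sh1-*TUG1* cells the 31 genes were called higher more often than lower, and in sh2-*TUG1* cells lower more often than higher. A gene was called where edgeR's quasi-likelihood test gave a Benjamini–Hochberg adjusted p under 0.05 over all genes of the table, and it was called a differentially expressed gene (DEG) where its fold change also exceeded 1.5. All adjusted p-values below are from this test, and both comparisons share the 3 sh-Con libraries. In sh1-*TUG1*, 9 of 31 genes were higher (against 12.5% of all 13017 genes) and 2 were lower (against 12.3%). None of the 31 was a higher DEG by edgeR (against 2.44% of all genes), at an unadjusted p under 0.05 or by DESeq2, since no fold change exceeded the 1.47 of *MPC1*, and 1 was a lower DEG (against 2.52%). In sh2-*TUG1*, 3 of 31 were higher (against 21.6% of all 12953 genes) and 10 were lower (against 21.9%). There, 1 was a higher DEG (against 4.35%) and 3 were lower DEGs (against 8.97%). With sh1-*TUG1* the log2 fold changes ran from −1.19 to 0.55 around a median of 0.07 (0.0028 over all genes), and with sh2-*TUG1* from −1.42 to 0.66 around −0.02 (−0.0048 over all genes).

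These counts depended on single libraries. In sh1-*TUG1* the 9 higher genes became 5 without sh1-*TUG1* replicate 1 or 2, and the 2 lower genes became 1 without sh-Con replicate 2 or without any 1 of the sh1-*TUG1* libraries. In sh2-*TUG1* the 10 lower genes became 6 without sh-Con replicate 2 or sh2-*TUG1* replicate 1 or 2. There the 3 lower DEGs became 5 without sh-Con replicate 1, which added *SUCLG2* and *LIPT1*. Of the 11 genes called in sh1-*TUG1*, 6 kept their call under every alternative tried, and of the 13 called with sh2-*TUG1*, 8 did.

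**Figure D1:**
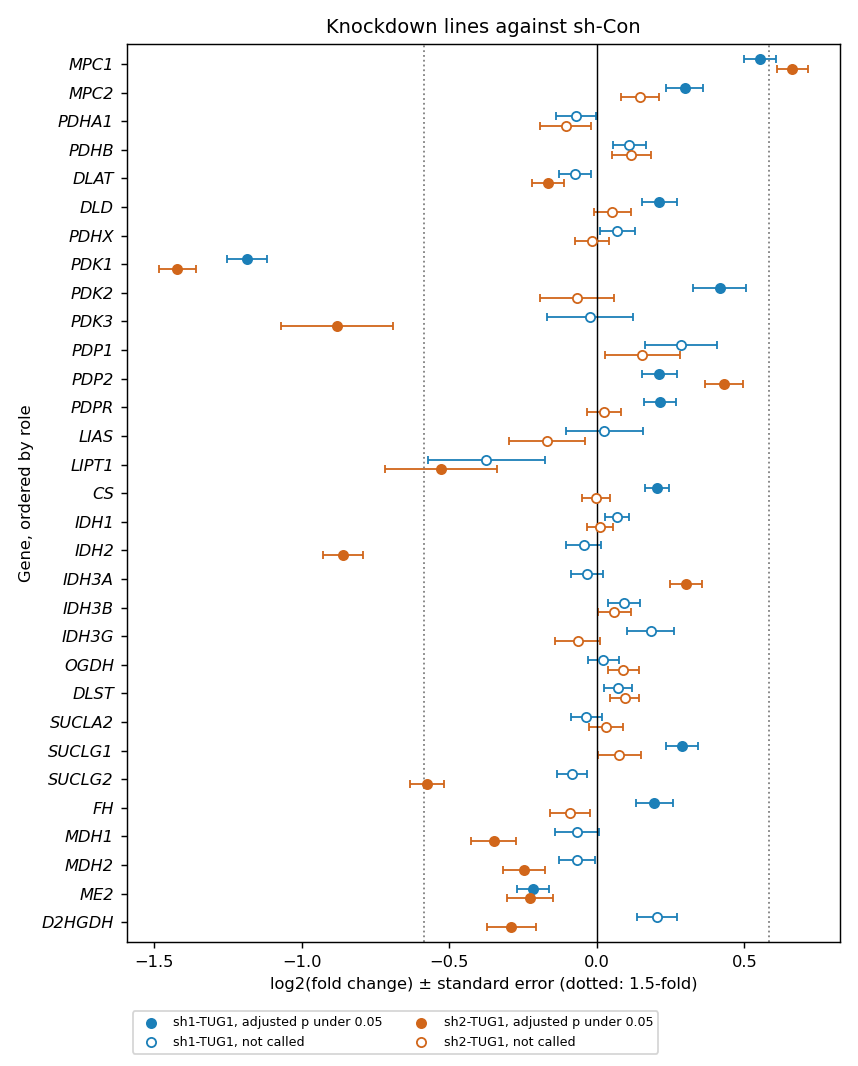
Log2 fold change of each of the 31 genes in sh1-*TUG1* (blue) and sh2-*TUG1* (orange) against sh-Con. Bars are the standard error derived from the edgeR test, and filled points have an adjusted p under 0.05. *PDK1* lies furthest to the left in both lines at −1.19 and −1.42, and *MPC1* furthest to the right at 0.55 and 0.66.

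**Figure D2:**
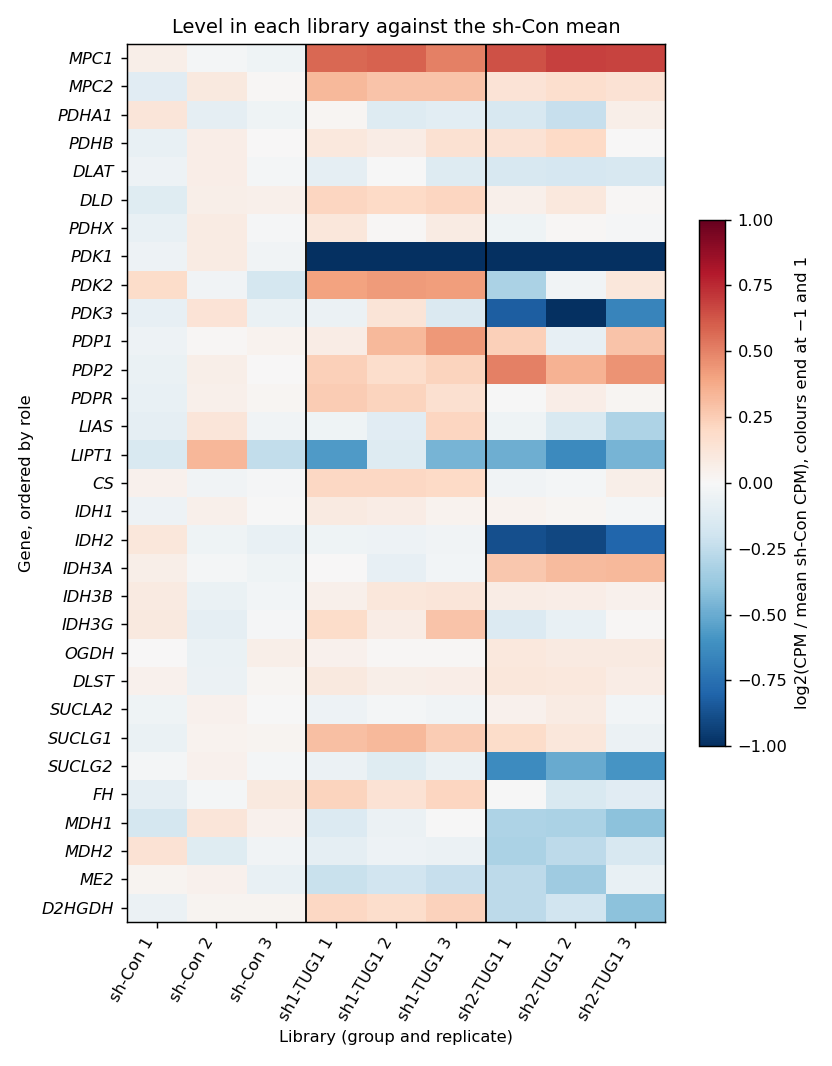
Log2 ratio of the CPM in each library to the mean CPM of sh-Con, with 1 row for each of the 31 genes and 1 column for each of the 9 libraries. *PDK1* is low and *MPC1* high in all 6 knockdown libraries, while *IDH2* and *PDK3* are low only in the 3 sh2-*TUG1* libraries. *SUCLG2* is lowest in sh2-*TUG1* and slightly below the controls in sh1-*TUG1*.

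In both lines, 4 genes passed in the same direction, *PDK1* and *ME2* lower and *MPC1* and *PDP2* higher. Over all 12854 shared genes 13.8% did so, and both comparisons use the same controls, so the number of such genes is at the background and nothing is read from it. *PDK1*, a kinase that inhibits the complex, lies on GRCh38 chromosome 2 from 172555373 to 172608669 on the plus strand. *PDK1* stood at 75.5, 82.9 and 76.1 CPM in sh-Con, 37.2, 32.6 and 33.4 in sh1-*TUG1*, and 28.5, 28.9 and 30.3 in sh2-*TUG1*. The 3 groups did not overlap, and every knockdown library held less than any control library by a wide margin. The edgeR fit put its log2 change at −1.19 with sh1-*TUG1* (SE 0.067, adjusted p = 3.74e-06, edgeR) and −1.42 with sh2-*TUG1* (SE 0.062, adjusted p = 5.44e-07), which made it a DEG in both lines, and these calls held under every alternative. Almost none of its transcript is shared with another annotated gene (0.134% of its 50-base words).

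*MPC1*, a subunit of the carrier that brings pyruvate into the matrix, lies on chromosome 6 from 166364919 to 166383013 on the minus strand. *MPC1* stood at 55.1, 52.1 and 51.5 CPM in sh-Con, 78.6, 79.5 and 74.8 in sh1-*TUG1*, and 82.3, 84.8 and 84.5 in sh2-*TUG1*. All knockdown libraries were above all control libraries. On the log2 scale it changed by 0.55 with sh1-*TUG1* (SE 0.053, adjusted p = 9.78e-05, edgeR), under the fold limit for a DEG, and 0.66 with sh2-*TUG1* (SE 0.053, adjusted p = 1.39e-05), over it. Both calls held under every alternative.

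*PDP2*, a phosphatase that reactivates the complex, lies on chromosome 16 from 66878589 to 66895754 on the plus strand. *PDP2* stood at 30.8, 33.7 and 32.3 CPM in sh-Con, 38.1, 36.5 and 37.7 in sh1-*TUG1*, and 45.8, 41.1 and 44.0 in sh2-*TUG1*. The groups were ordered sh-Con, sh1-*TUG1*, sh2-*TUG1* with no overlap. Its fitted log2 change reached 0.21 with sh1-*TUG1* (SE 0.058, adjusted p = 0.0255, edgeR) and 0.43 with sh2-*TUG1* (SE 0.065, adjusted p = 6.62e-04). In sh1-*TUG1* the call was lost without sh-Con replicate 3 and without any 1 of the sh1-*TUG1* libraries, at an adjusted p of 0.0558 to 0.0892, whereas in sh2-*TUG1* it held throughout.

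*ME2*, a mitochondrial malic enzyme that makes pyruvate from malate, lies on chromosome 18 from 50878734 to 50954257 on the plus strand. *ME2* stood at 40.9, 41.3 and 38.2 CPM in sh-Con, 34.3, 35.1 and 34.3 in sh1-*TUG1*, and 33.5, 31.3 and 38.2 in sh2-*TUG1*. The third sh2-*TUG1* library came up to the lowest control library. The test put the log2 change at −0.22 with sh1-*TUG1* (SE 0.055, adjusted p = 0.0191, edgeR) and −0.23 with sh2-*TUG1* (SE 0.079, adjusted p = 0.0424). These calls were weak, since the first was lost without sh-Con replicate 2 or any 1 sh1-*TUG1* library (adjusted p = 0.0537 to 0.0725) and the second without any 1 sh-Con library or without sh2-*TUG1* replicate 1 or 2 (adjusted p = 0.0506 to 0.156).

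Within a library, the ratio of *MPC1* counts to *PDK1* counts needs no scaling between libraries. It was 0.731, 0.628 and 0.676 in sh-Con, 2.12, 2.44 and 2.24 with sh1-*TUG1*, and 2.89, 2.93 and 2.79 with sh2-*TUG1*. The ratio of *PDP2* to *PDK1* counts was 0.409, 0.407 and 0.425 in sh-Con, 1.02, 1.12 and 1.13 with sh1-*TUG1*, and 1.61, 1.42 and 1.45 with sh2-*TUG1*. These are ratios of read counts not corrected for transcript length, so only their change between groups can be read. Both ratios separated the 3 groups with no overlap.

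The promoters of the 4 genes that passed in both lines are printed because ACGTG, a form of the core of the hypoxia response element, can be looked for in them. Each runs from 250 bases before to 50 bases after a start site annotated by RefSeq on GRCh38.p14, 5′ to 3′ on the strand of the gene. Capitals mark ACGTG or its reverse complement CACGT, and the words overlap where they form CACGTG. The core can also start with G, and that form, GCGTG, was not searched for. The *MPC1* and *ME2* windows hold GCGTG in small letters.
PDK1, upstream start, chr2:172555123-172555422, plus strand: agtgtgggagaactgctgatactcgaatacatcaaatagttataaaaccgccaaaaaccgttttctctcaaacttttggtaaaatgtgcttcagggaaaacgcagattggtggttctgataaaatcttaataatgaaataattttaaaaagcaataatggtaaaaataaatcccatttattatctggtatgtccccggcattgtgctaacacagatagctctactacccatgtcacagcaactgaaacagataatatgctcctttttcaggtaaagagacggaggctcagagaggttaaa
PDK1, downstream start, chr2:172555840-172556139, plus strand: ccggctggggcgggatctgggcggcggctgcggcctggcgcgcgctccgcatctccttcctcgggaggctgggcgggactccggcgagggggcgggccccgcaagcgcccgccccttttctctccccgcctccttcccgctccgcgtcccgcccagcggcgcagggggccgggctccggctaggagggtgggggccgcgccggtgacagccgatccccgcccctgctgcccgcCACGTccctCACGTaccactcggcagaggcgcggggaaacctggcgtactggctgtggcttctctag
MPC1, chr6:166382891-166383190, minus strand: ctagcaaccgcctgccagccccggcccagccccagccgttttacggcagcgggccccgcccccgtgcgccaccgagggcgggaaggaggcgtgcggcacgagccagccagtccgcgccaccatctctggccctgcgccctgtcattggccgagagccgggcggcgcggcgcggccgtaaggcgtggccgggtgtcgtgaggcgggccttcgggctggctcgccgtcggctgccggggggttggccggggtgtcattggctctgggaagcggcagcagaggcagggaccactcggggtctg
PDP2, chr16:66880265-66880564, plus strand: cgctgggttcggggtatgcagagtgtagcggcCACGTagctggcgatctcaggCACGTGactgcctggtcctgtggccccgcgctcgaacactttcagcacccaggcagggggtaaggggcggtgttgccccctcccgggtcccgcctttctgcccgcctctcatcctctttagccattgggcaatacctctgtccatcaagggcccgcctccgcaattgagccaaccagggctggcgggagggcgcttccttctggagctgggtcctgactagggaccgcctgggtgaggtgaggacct
ME2, chr18:50878868-50879167, plus strand: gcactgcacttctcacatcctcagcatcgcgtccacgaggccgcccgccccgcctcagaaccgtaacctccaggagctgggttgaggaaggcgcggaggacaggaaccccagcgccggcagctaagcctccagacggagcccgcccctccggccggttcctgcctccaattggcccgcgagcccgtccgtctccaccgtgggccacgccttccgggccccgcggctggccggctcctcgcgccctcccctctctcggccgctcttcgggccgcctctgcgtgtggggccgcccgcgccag

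At the downstream start of *PDK1* the letters occurred at bases 234 and 243, counted from the first base of the window, just before the start site at its base 251. *PDP2* held them from bases 33 and 54, and neither the *MPC1* and *ME2* windows nor the upstream *PDK1* window held ACGTG on either strand. RefSeq windows were found for 29 of the 31 genes, 39 windows in all, and *OGDH* and *PDP1* had none. Of these windows, 11 (28.2%) held ACGTG on either strand, against 21.4% of 35116 promoters of this length. The palindrome CACGTG, the letters of an E-box, was in 4 of 39 (10.3%, against 7.26%). The letters CCAAT or ATTGG were in 21 of 39 (53.8%, against 34.6%). Such letters are a description of the windows, and no binding was measured. The 35116 promoters were not limited to genes of these count tables, and some of the 39 windows overlap. The shares therefore compare unlike sets.

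Among the other kinases, *PDK2* and *PDK3* differed between the knockdown lines. *PDK2*, another inhibitor of the complex, stood at 20.5, 17.7 and 16.0 CPM in sh-Con, 23.9, 24.2 and 24.2 in sh1-*TUG1*, and 14.6, 17.7 and 19.5 in sh2-*TUG1*. The sh1-*TUG1* libraries lay above all others, while sh2-*TUG1* overlapped sh-Con. Against sh-Con its log2 change came to 0.42 with sh1-*TUG1* (SE 0.090, adjusted p = 0.00874, edgeR) and −0.07 with sh2-*TUG1* (SE 0.12, adjusted p = 0.691). *PDK3*, the third kinase, on chromosome X from 24465221 to 24541862, stood at 5.16, 6.003 and 5.22 CPM in sh-Con, 5.24, 5.96 and 4.93 in sh1-*TUG1*, and 3.08, 2.37 and 3.45 in sh2-*TUG1*. It was low in the sh2-*TUG1* libraries alone, on 79 to 216 counts per library. The edgeR fit put its log2 change at −0.88 with sh2-*TUG1* (SE 0.19, adjusted p = 0.00471, edgeR), which made it a DEG under every alternative, and −0.02 with sh1-*TUG1* (SE 0.15, adjusted p = 0.931). The count ratio of *PDK1* to *PDK2* was 3.68, 4.69 and 4.75 in sh-Con, 1.55, 1.35 and 1.38 with sh1-*TUG1*, and 1.96, 1.64 and 1.55 with sh2-*TUG1*. It was lower in every knockdown library than in any control library. *PDK4*, the remaining kinase of the family, was not among the shared genes.

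**Figure D3:**
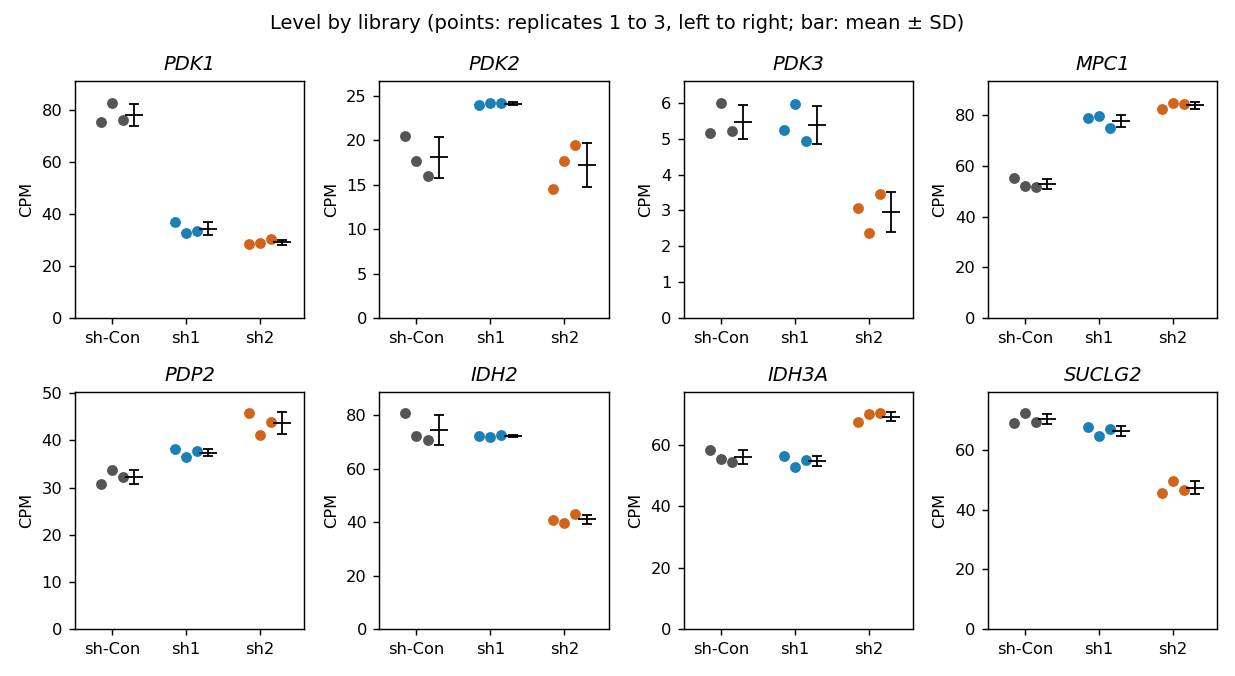
Level in CPM of 8 genes in each of the 9 libraries, with points for replicates 1 to 3 from left to right and bars for the mean ± SD of each group. *PDK1*, *MPC1* and *PDP2* differ from sh-Con in both knockdown lines, *PDK2* is high in sh1-*TUG1* alone, and *PDK3* and *IDH2* are low and *IDH3A* high in sh2-*TUG1* alone. *SUCLG2* is lowest in sh2-*TUG1* and slightly below the controls in sh1-*TUG1*.

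The other regulators of the complex moved less. *PDPR*, the regulatory subunit of the phosphatase, stood at 61.1, 66.8 and 65.2 CPM in sh-Con, 76.9, 75.3 and 72.0 in sh1-*TUG1*, and 64.3, 67.3 and 65.1 in sh2-*TUG1*. It was above the controls in each sh1-*TUG1* library, with a log2 fold change of 0.21 (SE 0.056, adjusted p = 0.0205, edgeR) that lost its call without sh1-*TUG1* replicate 1 or 2 (adjusted p = 0.0728 to 0.0805), and of 0.02 with sh2-*TUG1* (adjusted p = 0.763). *PDPR* shares 14.6% of its 50-base words with near-identical loci, so its counts are uncertain. *PDP1*, the other catalytic phosphatase subunit, did not pass, with a log2 fold change of 0.29 with sh1-*TUG1* (adjusted p = 0.118) and 0.15 with sh2-*TUG1* (adjusted p = 0.360).

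The 5 subunits of the complex itself changed little. *DLD*, the dihydrolipoamide dehydrogenase that other dehydrogenase complexes also use, stood at 72.7, 82.6 and 82.0 CPM in sh-Con, 92.0, 90.9 and 92.0 in sh1-*TUG1*, and 81.9, 84.9 and 79.8 in sh2-*TUG1*. It lay wholly above the controls in sh1-*TUG1*, while sh2-*TUG1* overlapped them. Its log2 fold change there was 0.21 (SE 0.059, adjusted p = 0.0278, edgeR), lost without any 1 of the sh1-*TUG1* libraries (adjusted p = 0.0781 to 0.0893), and 0.05 with sh2-*TUG1* (adjusted p = 0.535). *LAMB1*, which overlaps *DLD* on the other strand, had log2 fold changes of −0.23 and −0.60. *DLAT*, the acetyltransferase core, stood at 77.4, 83.8 and 79.2 CPM in sh-Con, 75.4, 79.8 and 73.4 in sh1-*TUG1*, and 71.7, 71.4 and 71.8 in sh2-*TUG1*. The sh2-*TUG1* libraries were below all others, with a log2 fold change of −0.16 (SE 0.053, adjusted p = 0.0301, edgeR). That call was lost without sh-Con replicate 2 or 3 or any 1 sh2-*TUG1* library (adjusted p = 0.0699 to 0.102). *PDHA1* and *PDHB*, the decarboxylase subunits, and *PDHX*, which anchors *DLD* in the complex, passed in neither line, with log2 fold changes from −0.11 to 0.12.

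*MPC2*, the partner of *MPC1* in the carrier, stood at 39.5, 45.8 and 43.0 CPM in sh-Con, 53.5, 52.1 and 52.2 in sh1-*TUG1*, and 47.0, 47.9 and 47.3 in sh2-*TUG1*. Both lines lay above the controls. The log2 fold change of 0.30 with sh1-*TUG1* passed (SE 0.063, adjusted p = 0.00798, edgeR), and that of 0.15 with sh2-*TUG1* did not (SE 0.066, adjusted p = 0.0984). The latter passed in the fit of all 9 libraries (0.15, adjusted p = 0.0496) and without sh-Con replicate 2 (0.20, adjusted p = 0.0445). *DCAF6*, which overlaps *MPC2* on the other strand, had log2 fold changes of 0.30 and 0.22, and whether counting used the strand was not given in the sources used here.

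*LIAS* and *LIPT1* supply the lipoic acid that *DLAT* and *DLST* carry. *LIPT1*, the lipoyltransferase, stood at 5.25, 7.30 and 4.90 CPM in sh-Con, 3.92, 5.32 and 4.22 in sh1-*TUG1*, and 4.15, 3.74 and 4.22 in sh2-*TUG1*. The second control library was the highest, and only sh2-*TUG1* lay wholly below the controls. Its log2 fold change in sh2-*TUG1* was −0.53 (SE 0.19, adjusted p = 0.0470, edgeR), on 125 to 247 counts per library, and the call was lost without sh-Con replicate 2 or any 1 sh2-*TUG1* library (adjusted p = 0.0772 to 0.186). *LIPT1* also shares 9.60% of its 50-base words with another annotated locus and overlaps *MITD1* and *TSGA10* on the other strand, so its counts are uncertain. *LIAS*, lipoic acid synthetase, passed in neither line, with log2 fold changes of 0.03 and −0.17.

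Among the enzymes of the cycle, *CS*, citrate synthase, stood at 169, 160 and 163 CPM in sh-Con, 190, 190 and 189 in sh1-*TUG1*, and 160, 162 and 171 in sh2-*TUG1*. The sh1-*TUG1* libraries stood above both other groups, which overlapped. On the log2 scale it changed by 0.20 with sh1-*TUG1* (SE 0.041, adjusted p = 0.00570, edgeR) and 0.00 with sh2-*TUG1* (SE 0.048, adjusted p = 0.982). *CS* shares 21.5% of its 50-base words with other loci, the most of the 31 genes, so its counts could have been divided with them.

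*IDH2* encodes the mitochondrial NADP+-dependent isocitrate dehydrogenase and lies on chromosome 15 from 90083045 to 90102504 on the minus strand. *IDH2* stood at 80.8, 72.2 and 70.6 CPM in sh-Con, 72.3, 72.0 and 72.7 in sh1-*TUG1*, and 40.6, 39.7 and 43.0 in sh2-*TUG1*. All sh2-*TUG1* libraries were far below the other groups, which overlapped. Its fitted log2 change reached −0.86 with sh2-*TUG1* (SE 0.067, adjusted p = 1.20e-05, edgeR), a DEG under every alternative, and −0.04 with sh1-*TUG1* (SE 0.059, adjusted p = 0.639). *IDH3A*, the catalytic subunit of the NAD+-dependent enzyme, also lies on chromosome 15, from 78131498 to 78171949 on the plus strand. *IDH3A* stood at 58.5, 55.4 and 54.4 CPM in sh-Con, 56.4, 53.0 and 55.2 in sh1-*TUG1*, and 67.5, 70.0 and 70.4 in sh2-*TUG1*. It was highest in sh2-*TUG1*, opposite to *IDH2*, with a log2 fold change of 0.30 (SE 0.054, adjusted p = 0.00177, edgeR) that passed under every alternative, and −0.03 with sh1-*TUG1* (adjusted p = 0.695). *CIB2* overlaps *IDH3A* on the other strand and had 0.34 with sh2-*TUG1*, which did not pass (adjusted p = 0.312). The count ratio of *IDH2* to *IDH3A* was 1.38, 1.30 and 1.30 in sh-Con, 1.28, 1.36 and 1.32 with sh1-*TUG1*, and 0.601, 0.568 and 0.611 with sh2-*TUG1*. Control and sh1-*TUG1* libraries overlapped in this ratio, and sh2-*TUG1* stood apart.

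*IDH3G*, a regulatory subunit of the NAD+-dependent enzyme, stood at 23.9, 20.9 and 22.1 CPM in sh-Con, 25.3, 23.5 and 27.2 in sh1-*TUG1*, and 20.3, 21.2 and 22.5 in sh2-*TUG1*. Each knockdown line overlapped sh-Con and neither comparison with it passed, with log2 fold changes of 0.18 (adjusted p = 0.125, edgeR) and −0.06 (adjusted p = 0.524). *IDH3B*, the remaining subunit, and *IDH1*, the cytosolic NADP+-dependent enzyme, also passed in neither line, with log2 fold changes from 0.01 to 0.09.

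The 2-oxoglutarate dehydrogenase genes *OGDH* and *DLST*, which make succinyl-CoA, passed in neither line, with log2 fold changes from 0.02 to 0.10. *DLST* shares 7.42% of its 50-base words with *DLSTP1*. Succinyl-CoA synthetase joins a shared subunit, *SUCLG1*, with *SUCLA2* in its ATP-forming version or *SUCLG2* in its GTP-forming version. *SUCLG1* stood at 44.1, 47.5 and 47.3 CPM in sh-Con, 57.0, 57.8 and 55.1 in sh1-*TUG1*, and 52.5, 49.96 and 44.4 in sh2-*TUG1*. It was above the controls in sh1-*TUG1*, while sh2-*TUG1* spread across them. The test put the log2 change at 0.29 with sh1-*TUG1* (SE 0.055, adjusted p = 0.00447, edgeR) and 0.08 with sh2-*TUG1* (adjusted p = 0.423). *SUCLG2*, on chromosome 3 from 67360460 to 67654614 on the minus strand, stood at 69.2, 72.4 and 69.5 CPM in sh-Con, 67.6, 64.7 and 67.2 in sh1-*TUG1*, and 45.5, 49.7 and 46.7 in sh2-*TUG1*. It was clearly lowest in sh2-*TUG1*, and the sh1-*TUG1* libraries lay slightly below the controls. Against sh-Con its log2 change came to −0.58 with sh2-*TUG1* (SE 0.057, adjusted p = 5.50e-05, edgeR), a fold of 0.671 that fell just short of the fold limit for a DEG, and −0.08 with sh1-*TUG1* (adjusted p = 0.267). *SUCLG2* shares 17.3% of its 50-base words with the pseudogene *SUCLG2P2*, so its counts are uncertain. *SUCLA2* passed in neither line, with −0.04 and 0.03, so that the count ratio of *SUCLG2* to *SUCLA2* was 1.77 to 1.80 in sh-Con, 1.66 to 1.77 with sh1-*TUG1* and 1.12 to 1.21 with sh2-*TUG1*. *SUCLA2* shares 9.71% of its 50-base words with *SUCLA2P1*, *SUCLA2P3* or other loci, so its counts and this ratio are also uncertain.

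*FH*, fumarase, stood at 50.7, 53.2 and 57.8 CPM in sh-Con, 63.0, 59.7 and 62.6 in sh1-*TUG1*, and 53.7, 48.6 and 49.9 in sh2-*TUG1*. Only sh1-*TUG1* lay above all controls. The edgeR fit put its log2 change at 0.19 with sh1-*TUG1* (SE 0.062, adjusted p = 0.0468, edgeR), a call lost without sh-Con replicate 1 or 2 or any 1 sh1-*TUG1* library (adjusted p = 0.0746 to 0.141), and −0.09 with sh2-*TUG1* (adjusted p = 0.312). *FH* shares 5.89% of its 50-base words with the pseudogene *FHP1* and other loci.

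The malate dehydrogenases, cytosolic *MDH1* and mitochondrial *MDH2*, carry reducing equivalents between the compartments, and *MDH2* closes the cycle. *MDH1* stood at 124, 153 and 145 CPM in sh-Con, 128, 135 and 140 in sh1-*TUG1*, and 113, 113 and 106 in sh2-*TUG1*. The sh2-*TUG1* libraries were below all others, with a log2 fold change of −0.35 (SE 0.076, adjusted p = 0.00488, edgeR) that held under every alternative, against −0.07 with sh1-*TUG1* (adjusted p = 0.569), which became −0.15 and passed without sh-Con replicate 1 (adjusted p = 0.0391). *WDPCP* overlaps *MDH1* on the other strand and had −0.57 with sh2-*TUG1*, which did not pass (adjusted p = 0.0638). *MDH2* stood at 191, 159 and 169 CPM in sh-Con, 163, 167 and 166 in sh1-*TUG1*, and 139, 144 and 154 in sh2-*TUG1*. Again sh2-*TUG1* was lowest and sh1-*TUG1* overlapped sh-Con, whose first library was high. On the log2 scale it changed by −0.25 with sh2-*TUG1* (SE 0.071, adjusted p = 0.0187, edgeR), a call lost without sh2-*TUG1* replicate 1 or 2 (adjusted p = 0.0630 to 0.0797), and −0.07 with sh1-*TUG1* (adjusted p = 0.477).

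*D2HGDH* turns D-2-hydroxyglutarate back into 2-oxoglutarate. It stood at 18.2, 19.4 and 19.3 CPM in sh-Con, 21.9, 21.4 and 22.3 in sh1-*TUG1*, and 15.8, 16.6 and 14.2 in sh2-*TUG1*. The lines lay on opposite sides of the controls with no overlap. Its fitted log2 change reached −0.29 with sh2-*TUG1* (SE 0.084, adjusted p = 0.0199, edgeR), lost without sh-Con replicate 2 or 3 or sh2-*TUG1* replicate 3 (adjusted p = 0.0551 to 0.0730), and 0.20 with sh1-*TUG1*, which did not pass (SE 0.068, adjusted p = 0.0538) except with scaling by total counts alone (0.23, adjusted p = 0.0356).

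The difference between the knockdown lines was tested directly in a fit of all 9 libraries over the 12854 shared genes. Of the 31 genes, 14 had a lower level in sh2-*TUG1* (against 21.7% of all genes) and 2 were higher (against 21.0%). Among them 2 were lower DEGs (against 8.04% of all genes), and none was a higher DEG by edgeR (against 2.56%), at an unadjusted p under 0.05 or by DESeq2, since no fold exceeded the 1.26 of *IDH3A*. The median log2 difference was −0.15, beside −0.00067 over all genes. Scaling by total counts alone made it −0.22, with 18 lower genes and 1 higher. The 14 lower genes became 9 without sh1-*TUG1* replicate 1.

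*PDK3* and *IDH2* differed most, by −0.86 (SE 0.17, adjusted p = 0.00207, edgeR) and −0.81 (SE 0.060, adjusted p = 1.31e-06). *SUCLG2*, *D2HGDH* and *PDK2* followed at −0.49 (SE 0.051), −0.49 (SE 0.073) and −0.48 (SE 0.11), each with an adjusted p of 0.00410 or less. Smaller differences passed for *FH*, *MDH1*, *IDH3G*, *PDK1*, *SUCLG1*, *CS*, *PDPR*, *MDH2* and *DLD*, from −0.28 to −0.16. *IDH3A* and *PDP2* were higher in sh2-*TUG1*, by 0.34 (SE 0.050, adjusted p = 2.59e-04, edgeR) and 0.22 (SE 0.057, adjusted p = 0.00883). Scaling by total counts alone ended the call of *PDP2*, at 0.16 (adjusted p = 0.0501). *PDK1* was among the lower genes, at −0.23 (SE 0.064, adjusted p = 0.0119, edgeR), a call lost without sh1-*TUG1* replicate 1 (adjusted p = 0.0543). For *MPC1* the difference of 0.11 (SE 0.048) did not pass (adjusted p = 0.0811) unless sh-Con replicate 1 was left out (adjusted p = 0.0497). *MPC2*, at −0.15 (SE 0.057, adjusted p = 0.0518), was just outside, and passed without sh-Con replicate 1 or 2 (adjusted p = 0.0149 and 0.0347) and under 4 of the other settings. Scaling by total counts alone also brought in *DLAT*, *PDHX* and *IDH1*, from −0.15 to −0.12. For *ME2* the difference was −0.01 (SE 0.071, adjusted p = 0.935).

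Other calls of this comparison also rested on single libraries. *DLD* lost its call without any 1 sh1-*TUG1* library or sh2-*TUG1* replicate 1 or 3 (adjusted p = 0.0730 to 0.107), and *MDH2* without any 1 sh1-*TUG1* library or sh2-*TUG1* replicate 1 or 2 (adjusted p = 0.0710 to 0.134). *IDH3G* lost it without sh1-*TUG1* replicate 1 or 3 or sh2-*TUG1* replicate 1 or 2 (adjusted p = 0.0521 to 0.100), and *SUCLG1* without sh1-*TUG1* replicate 1 or 2 or sh2-*TUG1* replicate 3 (adjusted p = 0.0526 to 0.0735). The other 10 of the 16 calls, apart from these, *PDK1* and *PDP2*, held under every alternative.

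**Figure D4:**
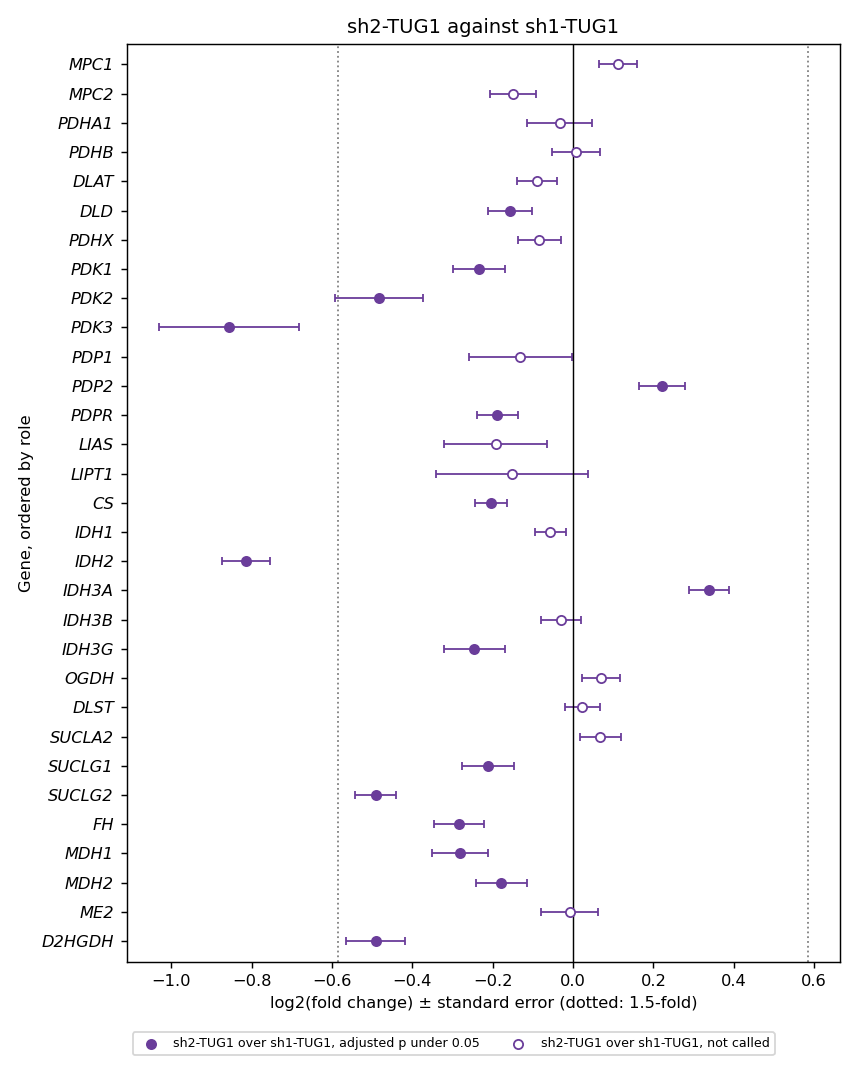
Log2 fold change of each of the 31 genes in sh2-*TUG1* against sh1-*TUG1*. Bars are the standard error derived from the edgeR test, and filled points have an adjusted p under 0.05. *PDK3* and *IDH2* lie beyond the 1.5-fold line at −0.86 and −0.81, and *IDH3A* and *PDP2* are the filled points to the right of 0.

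Genes next to these in the pathway were read from a list of 54, of which 51 were tested and *PDK4*, *ME1* and *ME3* were not among the shared genes. In sh1-*TUG1* 8 were higher and 4 lower, in sh2-*TUG1* 6 were higher and 22 lower, and between the lines 1 was higher and 24 were lower in sh2-*TUG1*, to be read beside the shares of all genes given above. The list had a median log2 fold change of 0.08 with sh1-*TUG1* and −0.12 with sh2-*TUG1*, and a median difference of −0.16 between the lines. Succinate dehydrogenase, the complex that oxidizes succinate between *SUCLG1* and *FH*, had its flavoprotein *SDHA* higher in both lines, by 0.39 with sh1-*TUG1* (adjusted p = 2.75e-04, edgeR) and 0.26 with sh2-*TUG1* (adjusted p = 0.00213). Its other subunits did not move alike. *SDHB* passed with sh2-*TUG1* alone (0.17, adjusted p = 0.0480, edgeR), *SDHC* with sh1-*TUG1* alone (0.24, adjusted p = 0.0294), *SDHD* in neither line, and the assembly factor *SDHAF3* was lower in both, at −0.27 (adjusted p = 0.0422) and −0.50 (adjusted p = 0.00176).

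Of the 51, 13 were DEGs in at least 1 of the 3 comparisons, as were 18.4% of the 12854 shared genes. *OGDHL*, a relative of *OGDH*, stood at 4.39, 3.67 and 3.46 CPM in sh-Con, 5.18, 5.98 and 6.31 in sh1-*TUG1*, and 1.75, 1.92 and 2.18 in sh2-*TUG1*. It was a DEG in opposite directions, with log2 fold changes of 0.60 (SE 0.16, adjusted p = 0.0233, edgeR) and −0.98 (SE 0.20, adjusted p = 0.00378), while *OGDH* passed in neither line. *ACSS1*, which makes acetyl-CoA from acetate in mitochondria, stood at 28.4, 28.3 and 28.5 CPM in sh-Con, 49.1, 51.5 and 49.0 in sh1-*TUG1*, and 35.2, 32.5 and 31.5 in sh2-*TUG1*, with log2 fold changes of 0.81 (SE 0.053, adjusted p = 8.93e-06, edgeR) and 0.22 (SE 0.063, adjusted p = 0.0198).

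The other DEGs against sh-Con were lower in sh2-*TUG1*. *SLC25A10*, the dicarboxylate carrier, had a log2 fold change of −0.82 (adjusted p = 1.16e-05, edgeR) and *SDHAF4*, an assembly factor of succinate dehydrogenase, −0.78 (adjusted p = 0.00211). *BOLA3* and *MECR*, which act before *LIAS* in making lipoic acid or its iron-sulfur clusters, had −0.84 (adjusted p = 1.21e-04, edgeR) and −0.70 (adjusted p = 0.00212). *BCKDHB*, of the branched-chain ketoacid dehydrogenase that also uses *DLD*, had −0.79 (adjusted p = 3.85e-04, edgeR). *ADHFE1*, which can form D-2-hydroxyglutarate, had −1.06 (adjusted p = 0.0137, edgeR) on 22 to 75 counts in each library compared. *GLUD1*, *GLS2*, *SIRT3* and *SUGCT* were DEGs in the comparison of the lines and in neither comparison with sh-Con, at −0.59, −0.72, −0.78 and −0.90 with sh2-*TUG1* against sh1-*TUG1*.

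The study concerned miR-122-5p, a liver microRNA proposed to be bound by *TUG1*, so its sites in the 31 genes were read from the principal transcripts of GENCODE 29. The mature sequence is given by RefSeq (GRCh38.p14, chromosome 18, 58451088 to 58451109, plus strand), with the seed, bases 2 to 8, in capitals, and the site that pairs with the seed is ACACTCC, in capitals in 30 bases of the 3′ UTR of each gene that held it.
hsa-miR-122-5p: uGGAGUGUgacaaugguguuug
PDK1: actcagtgtatacttACACTCCaagacatt
CS: agaaaggattaagatACACTCCtgctgtgc
PDPR: aggttctagtgccttACACTCCagaatgtc
DLAT: catggtacacaagtgACACTCCatatattc
IDH3B: aaccttgcaaggaccACACTCCccataccc
SUCLA2: aaacagagctttcaaACACTCCtcagaata

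A site was present in 6 of the 31 genes (19.4%, against 7.72% of the 11739 shared genes with a principal coding transcript). Those 11739 were counted whether or not a 3′ UTR was annotated. The 6 did not move together. *PDK1* fell in both lines and *DLAT* passed as lower in sh2-*TUG1* alone, *CS* and *PDPR* were higher in sh1-*TUG1*, and *IDH3B* and *SUCLA2* passed in neither line. In *PDK1* the site starts 11912 bases into a 3′ UTR annotated at 12700 bases, and whether HepG2 cells use that whole UTR was not measured. *MPC1*, *PDP2* and *ME2*, the other genes that passed in both lines, held no site, and miR-122-5p itself was not measured in these libraries.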

How the data were processed

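The series holds 9 RNA-seq libraries made from HepG2 lines, with 3 replicates for sh-Con and for each hairpin, grouped and numbered as labelled. The authors deposited a table of raw read counts per gene for each knockdown line with the control. The submitters' processing notes name HISAT2, StringTie and the GRCh38 build, with no version. Whether counting used the strand and how reads with several matches were treated were not given in the sources used here. The tables also hold FPKM values and the authors' own fold changes and false discovery rates, which were not used.

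Counts were tested with edgeR 4.0.16 in R 4.3.3 (TMM, quasi-likelihood test, Benjamini–Hochberg adjustment over all genes). Each line was compared with sh-Con in a fit of its own table, with 13017 and 12953 genes, and sh2-*TUG1* with sh1-*TUG1* in a fit of all 9 libraries over 12854 shared genes. edgeR's filterByExpr removed 0 genes, and all 31 genes passed, the lowest of their counts in a library being 79. DEGs needed an adjusted p under 0.05 and a change of over 1.5 times. CPM values are scaled by TMM over all 9 libraries, while log2 fold changes come from the fits. SE is the standard error of the log2 fold change, derived as its size divided by the square root of the test's F statistic. The tables also list 1087 and 1082 loci with no gene name, which stayed in the fits and were left out in an alternative. The tests were first checked on simulated data.

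The genes, the list of neighbouring genes and the tests were chosen with earlier results of these data known. All 31 genes are named, and other genes of the pathway are named where they are DEGs in at least 1 comparison or where a sentence on a member needs them. A DEG of the neighbouring genes that this rule selects is not reported here. Values in every library are given for those of the 31 genes that passed in at least 1 comparison. Positions and overlaps of genes and the share of 50-base words found in other genes came from GENCODE 29, and promoters and the microRNA from RefSeq tables.

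Alternatives were RLE size factors, total counts alone, a filter of 1 CPM in 3 libraries, no filter, DESeq2 1.42.0, a fit of all 9 libraries or of the 6 knockdown libraries, the replicate number as a block, leaving out the unnamed loci, and leaving out each library in turn.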

Additional observations from a re-analysis of the deposited data

Results flagged for a closer look

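For 16 of the 31 genes the change against sh-Con differed between the knockdown lines, by the test of sh2-*TUG1* against sh1-*TUG1* in the fit of all 9 libraries (adjusted p under 0.05, edgeR). In that difference on the log2 scale, 14 genes were lower in sh2-*TUG1*, namely *PDK3* (−0.86), *IDH2* (−0.81), *SUCLG2* (−0.49), *D2HGDH* (−0.49), *PDK2* (−0.48), *FH* (−0.28), *MDH1* (−0.28), *IDH3G* (−0.25), *PDK1* (−0.23), *SUCLG1* (−0.21), *CS* (−0.20), *PDPR* (−0.19), *MDH2* (−0.18) and *DLD* (−0.16). The other 2 were higher in sh2-*TUG1*, *IDH3A* (0.34) and *PDP2* (0.22). By the same test 21.7% of all 12854 shared genes were lower in sh2-*TUG1* and 21.0% were higher. Hairpin, line and any difference in knockdown cannot be told apart in this design.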

How the results depend on the processing

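Scaling by total counts alone moved the median change of the 31 genes on the log2 scale to 0.0957 with sh1-*TUG1*, −0.0524 with sh2-*TUG1* and −0.22 between the lines, where 1 gene was higher and 18 were lower. That scaling turned the sign of values near 0, to 0.00364 for *PDK3* in sh1-*TUG1*, −0.0120 for *PDPR*, −0.0258 for *IDH1* and −0.00438 for *SUCLA2* in sh2-*TUG1*, and −0.0556 for *PDHB* and −0.0406 for *DLST* between the lines. *CS* in sh2-*TUG1* turned to 0.000403 with RLE, 0.000552 with DESeq2 and 0.000937 in the fit of 9 libraries. The replicate numbers did not pair the libraries (correlations of −0.330 to 0.0113 between same-numbered libraries), and the replicate block gave 7 higher and 2 lower genes for sh1-*TUG1*, 3 and 7 for sh2-*TUG1*, and 2 and 12 between the lines. The block ended the calls of *PDP2* and *FH* in sh1-*TUG1*, of *DLAT*, *LIPT1* and *ME2* in sh2-*TUG1*, and of *DLD* and *MDH2* between the lines.

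Leaving out each library in turn gave 5 to 8 higher and 1 to 3 lower genes for sh1-*TUG1*, 6 to 9 lower genes and 3 to 5 lower DEGs for sh2-*TUG1*, and 9 to 15 lower genes between the lines. The median then ran from 0.0383 to 0.08325 for sh1-*TUG1* and from −0.0299 to −0.00102 for sh2-*TUG1*. Signs of uncalled genes turned in sh1-*TUG1* for *LIAS* (−0.0788 to 0.0904), *IDH2* (−0.0869 to 0.0117), *MDH2* (−0.130 to 0.00313), *PDK3* (−0.103 to 0.0441) and *OGDH* (−0.0146 to 0.0459). In sh2-*TUG1* they turned for *DLD* (−0.00460 to 0.0867), *PDK2* (−0.167 to 0.0418), *PDPR* (−0.0126 to 0.0529), *CS* (−0.0299 to 0.0189), *IDH1* (−0.0143 to 0.0384) and *PDHX* (−0.0521 to 0.0274). Between the lines they turned for *PDHA1* (−0.128 to 0.0261), *PDHB* (−0.0335 to 0.0601) and *ME2* (−0.0956 to 0.0541). No called value changed sign under any alternative run. The cause of these moves was not tested. Genes on few counts, such as *PDK3* and *LIPT1*, have the widest standard errors, and with 3 libraries a group small changes go undetected.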
